A study of Mus musculus with 4 samples.

Results

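The genes of fatty acid uptake and oxidation described here are Cd36, Fabp3, Cpt1a, Cpt1b, Cpt2, Acadvl, Acadl, Acadm, Hadha and Hadhb. They were chosen by name, and all 10 were found once in each of 4 tables, among 24850 entries with a gene symbol in the total RNA tables and 24992 in the polyA tables. All libraries came from C2C12, an immortal mouse myoblast line that stops dividing and fuses into multinucleated myotubes once the serum-rich growth medium is replaced by differentiation medium (DM) with horse serum. MB is total RNA depleted of rRNA from proliferating myoblasts, labelled DM -24 h, and MT is the same kind of RNA from cells at DM 72 h. The si-NC and si-hnRNPL libraries are polyA RNA from cells at DM 48 h, both transfected with siRNA, one with a scrambled control and the other with an siRNA against hnRNPL, an RNA-binding protein. The label for cell type reads myoblast in all 4 libraries, and MT, si-NC and si-hnRNPL are told apart from MB by their title and time in DM. C2C12 is 1 line without the nerve, blood flow or other cell types of muscle, and an siRNA acts only in the cells that take it up. Each condition has 1 library, so the spread between cultures is unknown and no significance test was made.

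Skeletal muscle burns fatty acids for much of its energy at rest. Fatty acids cross the plasma membrane with the help of the translocase CD36 and are carried through the cytosol by the binding protein FABP3, which is abundant in heart and in oxidative muscle fibers. Carnitine palmitoyltransferase 1 joins them to carnitine at the outer mitochondrial membrane, as the liver-type enzyme (Cpt1a) or the muscle-type enzyme (Cpt1b), and CPT2 returns them to coenzyme A on the inner membrane. The acyl-CoA dehydrogenases for very long, long and medium chains (Acadvl, Acadl, Acadm) then start each round of beta-oxidation, and the trifunctional protein, made of alpha (Hadha) and beta (Hadhb) subunits, carries out the remaining steps on long chains.

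Promoter windows of RefSeq, which run from 250 bases before to 50 bases after the annotated start of a gene in GRCm38.p6, were found for 9 of the 10 genes. Those of Cd36 and Fabp3 are shown because both genes rose in MT, that of Cpt1a because its mRNA far exceeded that of Cpt1b, and that of Hadhb because it overlaps the window of its partner subunit Hadha. The capitals mark matches, on either strand, to CAGCTG (an E-box of the kind that MyoD prefers), AGGTCA (the half-site of nuclear receptors such as the PPARs), CCAAT (the CCAAT box), GGGCGG (the GC box) and TATAAA (the TATA box).
Cd36 (chr5:17835847-17836146, minus strand): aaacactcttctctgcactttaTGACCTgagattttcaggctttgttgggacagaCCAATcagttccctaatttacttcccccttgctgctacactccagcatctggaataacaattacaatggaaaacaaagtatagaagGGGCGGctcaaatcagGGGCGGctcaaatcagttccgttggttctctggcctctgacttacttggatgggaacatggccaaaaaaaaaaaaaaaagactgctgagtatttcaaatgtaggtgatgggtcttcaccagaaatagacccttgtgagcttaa
Fabp3 (chr4:130308488-130308787, plus strand): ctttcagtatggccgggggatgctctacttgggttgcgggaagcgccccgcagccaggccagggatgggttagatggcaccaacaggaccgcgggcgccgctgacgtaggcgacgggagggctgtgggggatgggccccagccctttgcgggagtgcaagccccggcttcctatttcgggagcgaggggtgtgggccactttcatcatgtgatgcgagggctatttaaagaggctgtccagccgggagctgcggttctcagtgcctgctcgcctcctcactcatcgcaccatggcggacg
Cpt1a (chr19:3323051-3323350, plus strand): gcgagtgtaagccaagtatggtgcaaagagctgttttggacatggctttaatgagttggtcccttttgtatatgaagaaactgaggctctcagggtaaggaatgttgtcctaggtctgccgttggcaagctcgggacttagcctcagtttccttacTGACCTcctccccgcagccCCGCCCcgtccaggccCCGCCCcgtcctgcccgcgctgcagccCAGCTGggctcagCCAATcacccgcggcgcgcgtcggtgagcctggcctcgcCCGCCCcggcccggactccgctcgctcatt
Hadhb (chr5:30155003-30155302, plus strand): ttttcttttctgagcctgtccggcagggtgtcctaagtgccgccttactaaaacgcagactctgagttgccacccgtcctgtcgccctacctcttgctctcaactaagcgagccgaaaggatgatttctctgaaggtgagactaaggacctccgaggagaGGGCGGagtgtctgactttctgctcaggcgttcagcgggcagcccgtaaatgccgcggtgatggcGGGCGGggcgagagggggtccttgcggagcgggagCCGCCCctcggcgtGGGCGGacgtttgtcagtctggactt
The window of Fabp3 held 0 matches to the 5 motifs. The window of Cd36 held 1 match to AGGTCA, 1 to CCAAT and 2 to GGGCGG, and it was the poorest in GC among the 9 windows, with a GC content of 43.0% and 3 CG dinucleotides against 65.0% and 22 in Fabp3. Cpt1a was the single gene with CAGCTG, a motif that 16.3% of all 32851 windows hold. AGGTCA was found in 4 of the 9 windows (Cd36, Cpt1a, Acadvl and Acadm) and in 16.3% of all windows. GGGCGG was found in 6 of 9 against 35.7%, CCAAT in 2 of 9 against 37.4% and TATAAA in 0 of 9 against 13.6%. The start sites of Hadha and Hadhb lie 273 bases apart on opposite strands, so that their windows share 228 bases. The 1 GGGCGG match of Hadha lies in the shared bases and is also 1 of the 4 of Hadhb. The same site thus counts in both of these windows among the 6 with GGGCGG. These matches describe the letters of each window and are not evidence of binding.

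The values are FPKM, fragments scaled to the length of the transcript and to the size of the library, so genes can be set side by side per unit of length. Each is followed here by its deposited 95% bounds, which reflect the counting and assignment of fragments and no difference between cultures. By these bounds the effective depth was 59960176 (MB) and 54442655 (MT) fragments with total RNA and 21341051 (si-NC) and 14592485 (si-hnRNPL) fragments with polyA RNA, whose values were thus less precise. These depths are sums over unlike sets, 61630 entries with 36780 assembled units for total RNA and 24992 entries for polyA RNA. Hnrnpl, the target of the siRNA, had 95.1 FPKM (92.7 to 97.5) with the control siRNA and 85.9 FPKM (83.1 to 88.7) with its own, a ratio of 0.904 (0.867 to 0.942), so its mRNA was only slightly lower after knockdown. The study examined the knockdown in protein by Western blot, which these values of mRNA do not measure. All 6 myotube markers examined (Myog, Myh3, Ckm, Acta1, Mb and Tnnt1) rose in MT, with log2 changes from 5.19 to 7.21, and all 5 markers of cycling cells fell, with changes from -3.08 to -1.93. Cd36 is also made by adipocytes, endothelial cells and macrophages. Of the adipocyte markers, 5 of 6 were listed at 0 in both MB and MT and 5 of 6 in both polyA libraries, and Plin1, Cidec, Lep and Retn were listed at 0 throughout. The 6 summed to 0 to 0.0446 FPKM per library. The 5 endothelial markers summed to 0.0579 to 0.368 FPKM, most of it Tek in MT and in both polyA libraries. The 5 macrophage markers summed to 0.525 to 1.21 FPKM, most of it Cd68, with Adgre1 listed at 0 in all 4 libraries.

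In the proliferating myoblasts, the enzymes of beta-oxidation stood at the top of the 10 genes, and Fabp3, Cpt1b and Cd36 at the bottom. The order in MB was Hadhb, Acadvl, Hadha, Acadm, Acadl, Cpt1a, Cpt2, Fabp3, Cpt1b and Cd36, and none of the 9 neighboring pairs had overlapping intervals. The lowest and highest differed widely, from 0.0112 FPKM for Cd36 to 58.2 for Hadhb. In MT the order began with Acadvl at 57.4 FPKM and ended with Cpt1b at 0.507, and Cpt1a and Acadl were the one neighboring pair whose intervals overlapped. In si-NC, Acadl led with 80.6 FPKM, and the next 4 genes (Hadhb, Acadvl, Acadm and Cpt1a), between 52.7 and 53.6 FPKM, could not be told from one another in turn by their intervals, nor could Cpt1b and Cd36 at the bottom. In si-hnRNPL, Acadl again led, with 81.4 FPKM, and Acadm with Hadhb and Hadha with Cpt1a were the pairs whose intervals overlapped. The FPKM of the 10 genes summed to 246 in MB and 275 in MT, and to 359 in the si-NC and 373 in the si-hnRNPL library. Total RNA and polyA libraries were made and scaled separately and at different times in DM, so levels in one kind are set beside those in the other without a comparison.

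**Figure D1:**
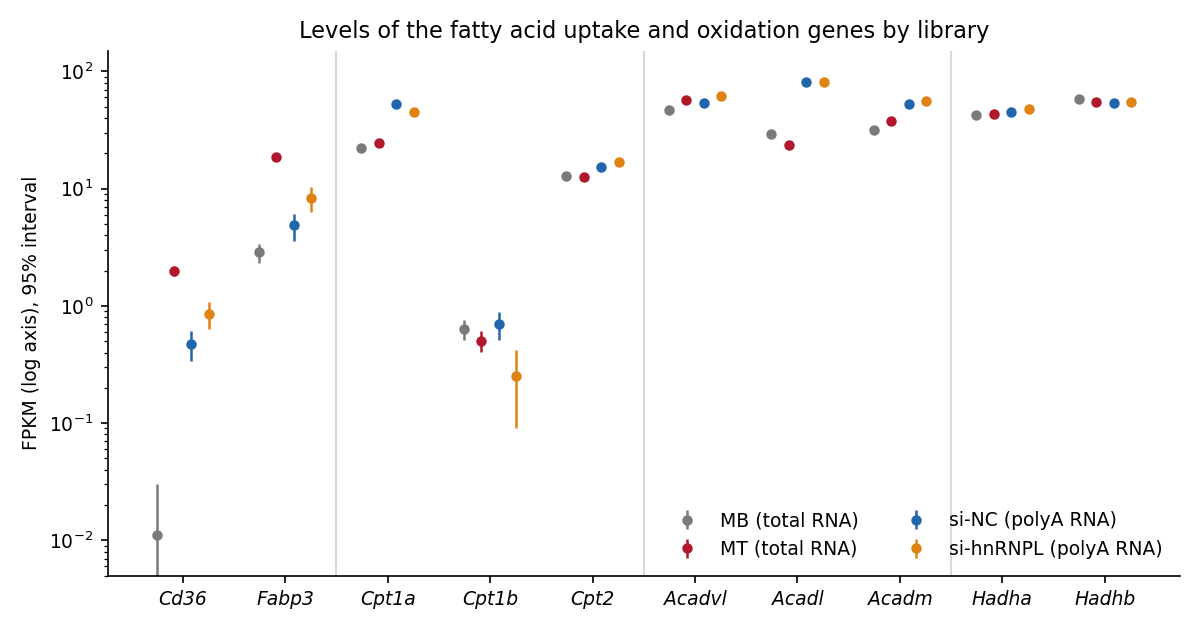
FPKM on a log axis for each of the 10 genes in MB, MT, si-NC and si-hnRNPL (1 library each), with bars for the deposited 95% interval; gray lines separate uptake and binding, carnitine shuttle, acyl-CoA dehydrogenases and trifunctional protein, and the lower bar of Cd36 in MB runs to 0, below the axis. Cd36 and Fabp3 are higher in MT than in MB, Cpt1b stays below 1 FPKM in all 4, and the dehydrogenases and trifunctional subunits lie between 23.4 and 81.4 FPKM.

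The comparison of MT with MB asks how these genes change as C2C12 cells differentiate. Changes are given as log2((FPKM + 1) ratio), on which scale the change of a gene with low FPKM comes out too small, and a gene was counted as higher or lower at 0.58 or more, close to the 1.5-fold threshold in the methods of the study. Of the 10 genes, 9 had a mean FPKM of at least 1 over both libraries, and 2 of these, Cd36 and Fabp3, were higher in MT while 0 were lower. Among all 11486 entries with such a mean, here called expressed, 14.6% were higher in MT and 28.9% lower, and the median log2 change was -0.21 against 0.14 for the 9 genes. As the RNA is from whole cultures, a change in the number of cells that make an mRNA and a change in the amount per cell cannot be told apart.

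Cd36 (mm9 chromosome 5, 17287508 to 17394777), the membrane translocase, was nearly absent from MB, with an FPKM of 0.0112 (0 to 0.0305) that corresponds to 1.34 fragments. In MT it stood at 2.00 FPKM (1.80 to 2.20), on 392 fragments. The intervals lay far apart, and the ratio of FPKM was 179. An exact counting interval was taken for 392 and 1 fragments, with those of MB rounded to 1, and rescaled to be centered on this ratio. It ran from 32.0 to 7093, and its bounds are approximate because of the rounding. On the log2((FPKM + 1) ratio) scale the change was 1.57 (1.47 to 1.67). Cd36 reached a mean of 1 FPKM only through its value in MT, so that it had to differ once it was counted as expressed.

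Fabp3 (chromosome 4, 129986022 to 129992707), the cytosolic carrier of fatty acids, was at 2.86 FPKM (2.33 to 3.40) in MB and at 18.7 FPKM (17.3 to 19.998) in MT. The ratio was 6.52 (5.41 to 8.11) and the log2 change 2.35 (2.13 to 2.58), higher than the change of 98.2% of expressed entries. In MT the mRNA of Fabp3 thus reached 0.763 times the level of Cpt1a, against 0.130 times in MB. Both genes of uptake and binding thus rose with differentiation.

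In the carnitine shuttle neither Cpt1a nor Cpt2 passed the threshold, and Cpt1b, with a mean below 1 FPKM, was not counted. Of all expressed entries 14.6% were higher and 28.9% lower, so most did not pass it either. Cpt1a (chromosome 19, 3323301 to 3385733) was at 22.04 FPKM (21.5 to 22.5) in MB and 24.4 (23.9 to 24.97) in MT, with a log2 change of 0.14 (0.10 to 0.19). Cpt1b (chromosome 15, 89246836 to 89256293), the isoform named for muscle, was at 0.637 FPKM (0.512 to 0.761) in MB and 0.507 (0.407 to 0.607) in MT, and its intervals overlapped. It stayed below 1 FPKM in the same library in which Myog rose from 0.695 to 251 FPKM. The mRNA of Cpt1a exceeded that of Cpt1b by 34.6 times (28.9 to 43.1) in MB and by 48.3 times (40.2 to 60.2) in MT. The locus of Cpt1b also lies inside a read-through entry with the upstream gene Chkb, which was at 0.402 FPKM in MB and 0.114 in MT, and the division of fragments between both is uncertain. With this entry added to Cpt1b, Cpt1a was still 21.2 times as high in MB and 39.4 times in MT. Cpt1b also holds the only assembled transcript unit found in any of the 10 loci (chromosome 15, 89247702 to 89248182), at 0.676 FPKM in MB and 0.249 in MT. Cpt2 (chromosome 4, 107576587 to 107596194) was at 12.9 FPKM (12.3 to 13.4) in MB and 12.6 (12.1 to 13.1) in MT, with overlapping intervals and a log2 change of -0.03 (-0.11 to 0.05).

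The 3 acyl-CoA dehydrogenases moved by small amounts and not all in one direction. The threshold was reached by 0 of 3, beside 14.6% of all expressed entries higher and 28.9% lower. Acadvl (chromosome 11, 69823685 to 69828930), for very long chains, was at 46.5 FPKM (45.5 to 47.6) in MB and 57.4 (56.2 to 58.5) in MT, a log2 change of 0.30 (0.25 to 0.34). Acadm (chromosome 3, 153585317 to 153607607), for medium chains, was at 31.8 (30.9 to 32.7) and 38.0 (37.1 to 39.0), a log2 change of 0.25 (0.20 to 0.31). Acadl (chromosome 1, 66877413 to 66909883), for long chains, was at 29.2 (28.3 to 30.1) and 23.4 (22.6 to 24.2), a log2 change of -0.31 (-0.37 to -0.25). The balance within the family therefore shifted beyond counting error. Acadvl was 1.59 times as high as Acadl in MB (1.53 to 1.65) and 2.45 times in MT (2.36 to 2.55), and Acadm was 1.09 times (1.04 to 1.13) and 1.63 times (1.56 to 1.70) as high as Acadl. These ratios are taken within a library and do not depend on its scaling.

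The subunits of the trifunctional protein had changes close to 0. Hadha (chromosome 5, 30444844 to 30481520) was at 42.1 FPKM (41.4 to 42.9) in MB and 43.3 (42.6 to 44.1) in MT, and Hadhb (30481793 to 30511133) at 58.2 (56.7 to 59.7) and 55.0 (53.9 to 56.2). Their log2 changes were 0.04 (0.01 to 0.08) and -0.08 (-0.13 to -0.03). The genes start from neighboring sites on opposite strands, and the FPKM of Hadha was 0.723 times that of Hadhb (0.701 to 0.746) in MB and 0.787 times (0.766 to 0.809) in MT, with intervals apart. With polyA RNA the intervals overlapped, at 0.833 (0.777 to 0.893) for si-NC and 0.876 (0.812 to 0.945) for si-hnRNPL. Hadha shares its last 77 bases with a neighboring entry on mm9 chromosome 5 that was at 0.279 FPKM or less in all 4 libraries.

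Apart from Cd36 and Fabp3, the other 8 genes had changes from -0.31 (Acadl) to 0.30 (Acadvl) on the log2 scale. Cpt1b, among them, had a mean below 1 FPKM, where this scale makes a change too small. The intervals of MB and MT lay apart for 7 of the 9 expressed genes, against 85.9% of all expressed entries, so separation of intervals was common at this depth and did not set these genes apart. The scaling of FPKM mattered for these small changes. Over named loci of at least 300 bases, FPKM summed to 422233 in MB and 284116 in MT, and bringing both to a common sum moved the median of all expressed entries by 0.51. With this scaling 3899 expressed entries were higher in MT and 1328 lower, in place of 1672 and 3317, and centering on the median gave 2423 and 2231. Under the common sum 6 of the 9 genes passed the threshold, and Cpt1b, Cpt2, Acadl and Hadhb, which were below 0 as deposited, came to lie above 0. Cd36 and Fabp3 were higher in MT under either scaling.

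**Figure D2:**
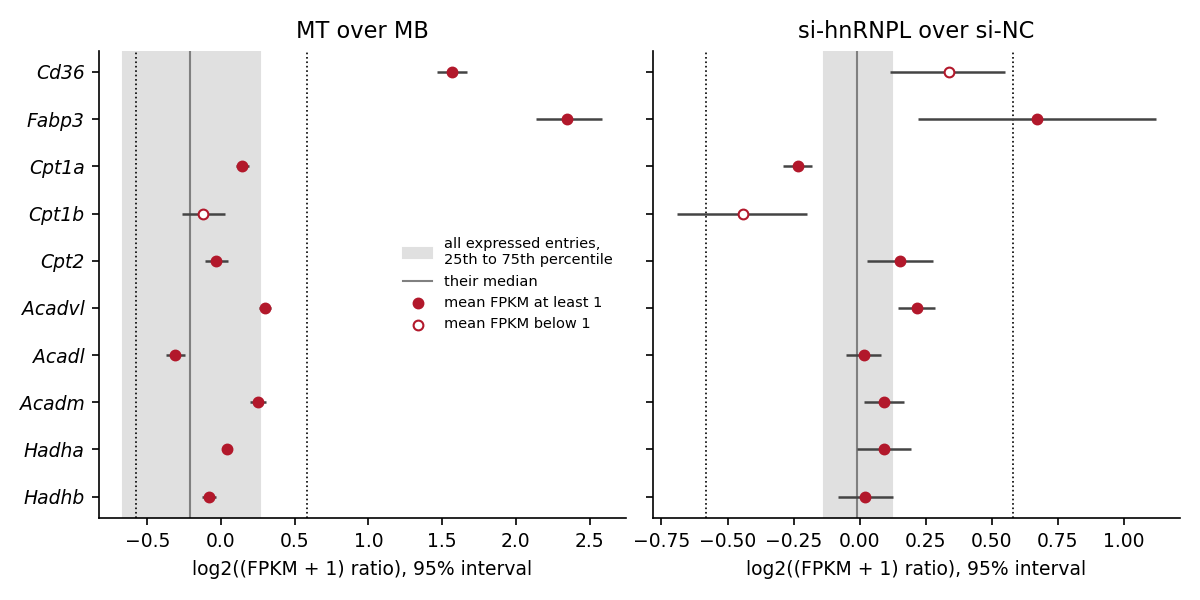
log2((FPKM + 1) ratio) of the 10 genes for MT over MB (left) and si-hnRNPL over si-NC (right), with 95% intervals from the deposited bounds; the gray band and line give the 25th to 75th percentile and the median of all expressed entries, dotted lines the threshold of 0.58, and open points genes with a mean below 1 FPKM. In MT over MB, Cd36 (1.57) and Fabp3 (2.35) stand to the right of the threshold and the other 8 genes lie between -0.31 and 0.30; in si-hnRNPL over si-NC, Fabp3 (0.67) is the one gene past it.

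The comparison of si-hnRNPL with si-NC asks what the knockdown of hnRNPL does to the mRNAs of differentiating cells. Here 8 of the 10 genes were expressed by the same rule, 1 of them (Fabp3) was higher in si-hnRNPL and 0 were lower, against 1.36% of 11234 expressed entries higher and 0.863% lower. The median log2 change was 0.09 over the 8 genes and -0.01 over all expressed entries. The split of all expressed entries, 153 higher and 97 lower, depended on scaling, with 94 and 183 for a common sum and 163 and 87 after centering on the median. The intervals of both libraries lay apart for 3 of the 8 genes (Fabp3, Cpt1a and Acadvl), against 33.8% of all expressed entries.

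Fabp3 had 4.86 FPKM (3.61 to 6.11) in si-NC and rose to 8.34 FPKM (6.30 to 10.4) in si-hnRNPL, on 60.2 and 67.3 fragments, a log2 change of 0.67 (0.22 to 1.12). The interval of the change reached below the threshold, and the margin between the intervals of both libraries was small. Fabp3 is short, with 823 bases of exon in the GENCODE annotation of mm9, and the log2 change of all expressed entries differed with length in this pair of libraries, with a median of 0.12 over the 2725 shortest by effective length and -0.12 over the 2725 longest. The 500 expressed entries nearest to Fabp3 in effective length had a median of 0.21. With this subtracted, Fabp3 stood at 0.46, below the threshold, and with a common sum it stood at it, with 0.58. The last 81 bases of Fabp3 also overlap the last bases of Zcchc17 on the other strand (11.9 FPKM in si-NC, 14.2 FPKM with si-hnRNPL), and whether the counting used strand is not given in the sources used here.

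Cd36 was low in both polyA libraries, at 0.474 FPKM (0.338 to 0.610) in si-NC and 0.861 FPKM (0.639 to 1.08) after knockdown. The intervals lay apart, with a ratio of 1.82 (1.23 to 2.73) on 48.6 and 60.5 fragments, while the log2((FPKM + 1) ratio) was 0.34 (0.11 to 0.55). Both uptake genes were thus at a higher value in si-hnRNPL. Most myotube markers were higher there too, with intervals apart for 5 of 6. The exception was Mb, at 9.39 FPKM (8.17 to 10.6) in si-NC and 9.72 FPKM (8.17 to 11.3) in si-hnRNPL. The 6 myotube markers had log2 changes from 0.05 to 0.71, of which Acta1 and Ckm passed the threshold, and their summed level was 1578 FPKM with si-NC and 2309 FPKM with si-hnRNPL. The 5 markers of cycling cells had changes from -0.62 to -0.31, of which Mki67 and Top2a passed it, with sums of 215 and 154 FPKM. The part of differentiation in the values of Fabp3 and Cd36 was not tested.

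In the carnitine shuttle, Cpt1a had 52.7 FPKM (51.5 to 53.9) in si-NC, against 44.6 FPKM (43.2 to 46.003) with the knockdown, a log2 change of -0.23 (-0.29 to -0.18), with 11.3% of expressed entries lower still. It was the gene with the largest negative change among the 8, without reaching the threshold. Cpt1b was at 0.701 FPKM (0.516 to 0.887) and 0.254 (0.0914 to 0.417), with intervals apart and a log2((FPKM + 1) ratio) of -0.44 (-0.69 to -0.20). The read-through entry at its locus, listed as Gm44502 in these tables, had the opposite order, at 0.157 FPKM (0.0700 to 0.244) and 0.527 (0.341 to 0.714). Both summed to 0.858 FPKM in si-NC and to 0.781 FPKM after knockdown. Whether fragments were divided correctly between these overlapping entries was not tested. Cpt1a was 75.1 times (59.3 to 102) as high as Cpt1b with si-NC and 176 times (107 to 488) with si-hnRNPL, or 61.4 and 57.1 times as high as Cpt1b with the read-through entry added. Cpt2 was at 15.2 FPKM (14.3 to 16.1) and 17.0 (15.8 to 18.2), with overlapping intervals and a log2 change of 0.15 (0.03 to 0.28).

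Among the enzymes of beta-oxidation, Acadvl had 53.2 FPKM (51.5 to 55.0) in si-NC and 62.0 FPKM (59.6 to 64.3) after knockdown, with intervals apart and a log2 change of 0.22 (0.14 to 0.29). The other 4 had overlapping intervals. Acadm was at 52.8 FPKM (51.0 to 54.6) and 56.3 (54.0 to 58.6), a log2 change of 0.09 (0.02 to 0.17). Acadl was at 80.6 (78.3 to 82.9) and 81.4 (78.5 to 84.3), a change of 0.01 (-0.05 to 0.08). The trifunctional subunits followed the same pattern, with changes of 0.09 (-0.01 to 0.19) for Hadha, from 44.7 FPKM (42.5 to 46.9) to 47.7 (45.2 to 50.1), and 0.02 (-0.08 to 0.13) for Hadhb, from 53.6 (51.0 to 56.3) to 54.4 (51.4 to 57.4). For Acadl, Acadm, Hadha and Hadhb the sign turned when both libraries were brought to a common sum, while no value of the 4 lay further from 0 than 0.16 under the alternatives examined.

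**Figure D3:**
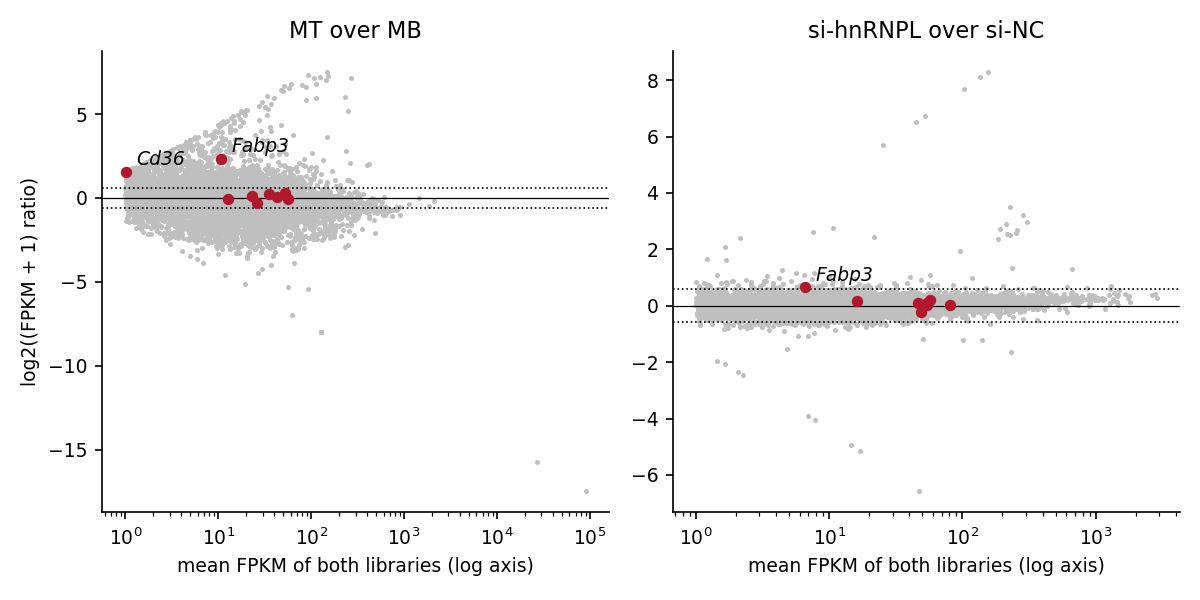
log2((FPKM + 1) ratio) against the mean FPKM of both libraries (log axis) for all expressed entries (gray) and the expressed genes of fatty acid uptake and oxidation (red), for MT over MB (left, 9 genes) and si-hnRNPL over si-NC (right, 8 genes), with dotted lines at 0.58 to either side of 0. In MT over MB, Cd36 and Fabp3 lie above the upper line, and in si-hnRNPL over si-NC Fabp3 alone does.

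Around these 10 genes, 80 other genes of fatty acid metabolism were examined in 7 lists. In MT over MB, 68 were expressed, of which 11 were higher and 13 lower, with a median log2 change of -0.03. As a share of the 11486 expressed entries, 14.6% were higher and 28.9% lower, and the counts of the single lists below are to be read beside these shares. Of the genes that passed the threshold, Acsl6, Acad10, Abcd2 and Acsbg1 were below 1 FPKM in one library and were counted as expressed through the other. With at least 1 FPKM required in both libraries 8 genes were higher and 12 lower, beside 1293 and 3115 of all 10791 such entries. With FPKM brought to a common sum the numbers for the 80 genes were 29 and 4, the 4 being Acsbg1, Acsl5, Fabp5 and Pparg. Among all expressed entries 3899 of 11545 were then higher and 1328 lower. Centering on the median gave 19 and 5, beside 2423 and 2231 of all 11486 expressed entries. In si-hnRNPL over si-NC, 66 were expressed and 0 passed the threshold in either direction. Passing it was rare among all 11234 expressed entries too, with 1.36% higher and 0.863% lower. The changes of the 66 ran from -0.52 for Angptl4 to 0.50 for Slc27a1.

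The widest spread was in the genes that transport fatty acids and join them to coenzyme A, where 4 of 11 expressed genes were higher in MT and 4 lower. Lpl, the lipase that frees fatty acids from circulating lipoproteins, rose from 1.93 FPKM (1.78 to 2.09) to 15.7 (15.3 to 16.1). Acsl6 rose from 0.245 (0.152 to 0.339) to 4.97 (4.65 to 5.29) and Acsl3 from 19.7 (19.1 to 20.3) to 57.1 (56.4 to 57.9), both of them acyl-CoA synthetases. Acsl5, a synthetase of the same family, fell from 66.4 (65.4 to 67.5) to 15.6 (15.1 to 16.0), and Acsbg1, a further acyl-CoA synthetase, from 11.3 (10.8 to 11.8) to 0.445 (0.356 to 0.533). Fabp5, a fatty acid binding protein of the same family as Fabp3, fell from 150 FPKM (147 to 153) to 17.9 (16.8 to 18.9). Per unit of length MB thus held far more Fabp5 than Fabp3 mRNA, and in MT both stood at nearly the same FPKM, with overlapping intervals. Fabp4, the adipocyte form, was at 0.251 FPKM or less in all 4 libraries.

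In the carnitine system 0 of 5 genes passed the threshold. Of the 15 other genes of mitochondrial beta-oxidation, 3 were higher in MT and 3 lower. Acad11 rose from 4.64 FPKM (4.37 to 4.90) to 15.5 (15.0 to 15.9), Acadsb, the dehydrogenase for short branched chains, from 11.2 (10.8 to 11.6) to 31.0 (30.3 to 31.7), and Acad10 from 0.957 (0.841 to 1.07) to 2.40 (2.22 to 2.58). Acad9, Acat1 and Etfb fell, with log2 changes of -0.75, -0.75 and -0.73. ACAD9 is better known for the assembly of respiratory complex I, ACAT1 works on ketone bodies and isoleucine as well, and ETFB is a subunit of the flavoprotein that takes electrons from the acyl-CoA dehydrogenases. Those 3 falls did not reach the threshold with the common sum or after centering.

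Of the 7 expressed genes of regulation, 3 were lower in MT and 0 higher. Pparg, the nuclear receptor of adipocytes, fell from 14.8 FPKM (14.01 to 15.6) to 3.94 (3.51 to 4.38), Pdk4, the kinase that restrains the use of pyruvate, from 17.9 (17.4 to 18.4) to 10.1 (9.71 to 10.5), and Ppard, the PPAR of muscle, from 8.03 (7.68 to 8.39) to 4.46 (4.204 to 4.72). With the common sum or after centering the falls of Pdk4 and Ppard no longer reached the threshold. Ppara and Ppargc1a, which act on oxidation genes in liver and in trained muscle, stayed at or below 0.322 FPKM in all 4 libraries. In peroxisomal oxidation 2 of 9 expressed genes were higher, Acox3 with a log2 change of 1.37 and Abcd2 with 0.83, and 0 were lower. Of 10 expressed genes of lipid droplets and lipolysis 1 was higher, Lipe (hormone-sensitive lipase), from 1.33 FPKM (1.14 to 1.52) to 4.14 (3.81 to 4.47). In fatty acid synthesis 1 of 11 expressed genes was higher, Scd1, a desaturase, with 1.32, and 3 were lower, Fasn, the fatty acid synthase, with -1.09, Me1 with -0.74 and Acly with -0.59. None of these 3 falls reached the threshold with the common sum, where Fasn stood at -0.54, and Fasn alone of the 3 did after centering, with -0.88.

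**Figure D4:**
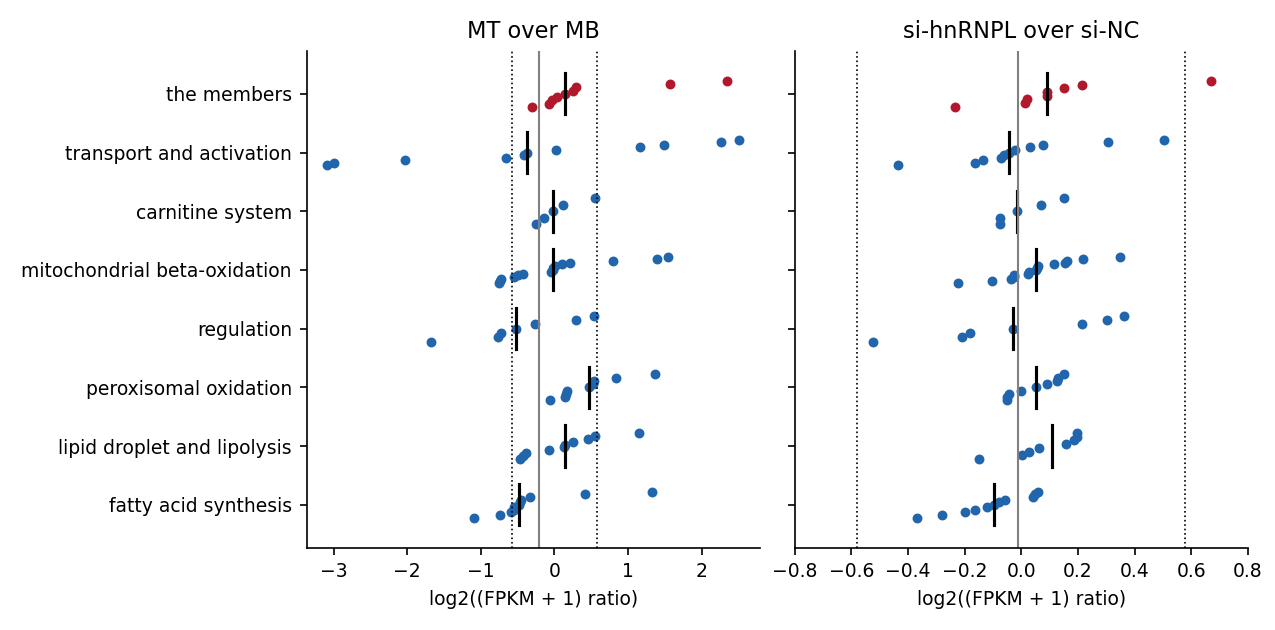
log2((FPKM + 1) ratio) of every expressed gene (points) in the 10 genes described here (red, labelled the members) and in 7 lists of other genes of fatty acid metabolism (blue), for MT over MB (left) and si-hnRNPL over si-NC (right); black bars are the median of a list, the gray line the median of all expressed entries and dotted lines the threshold of 0.58. The list of transport and activation spreads from -3.09 to 2.51 in MT over MB, and no blue point passes the threshold in si-hnRNPL over si-NC. Of all expressed entries in si-hnRNPL over si-NC, 1.36% were higher and 0.863% lower.

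For 1 gene of each step, the 3 genes nearest to it in level over the 4 libraries were found by Euclidean distance of log2(FPKM + 1), with each kind of library scaled on its own. Nearest to Cd36 were Gdpd2 (distance 0.25), Ush1g (0.33) and Pkhd1 (0.39), at most 0.104 FPKM in MB and between 1.44 and 1.61 in MT. Cd36 itself reached 1 FPKM only in MT, and entries with that trait were not searched. Nearest to Hadha were Pdrg1 (0.13), Dnpep (0.16) and Mfsd1 (0.17), which had 39.4 to 47.2 FPKM over the 4 libraries. Nearest to Acadl were Spop (0.35), Dnaja1 (0.42) and Mapk3 (0.42), with 22.1 to 33.9 FPKM in the total RNA tables and 63.0 to 88.6 in the polyA tables. Cpt1b was below 1 FPKM in all 4 libraries, and entries that low throughout were not searched, so a near neighbor could be missed. Of the entries searched, the nearest to Cpt1b were 4930581F22Rik (0.67), C530008M17Rik (0.68) and Rab38 (0.72).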

How the data were processed

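Total RNA depleted of rRNA (MB, MT) and polyA RNA (si-NC, si-hnRNPL) of C2C12 cells were sequenced, with 1 library per condition. The authors trimmed reads, discarded short ones, mapped the rest to mm9 with TopHat2 and deposited FPKM estimated by Cufflinks, giving bounds of 95%, a locus and a status for each entry, and the status was OK for all 10 genes. FPKM depends on the summed signal of a library and on the length assigned to a transcript, and fragments of overlapping entries are divided by estimate. The total RNA tables also list 36780 assembled units.

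Here, log2((FPKM + 1) ratio) was computed for each entry with a symbol. Its interval adds the distances to both deposited bounds in quadrature. Entries with a mean FPKM of at least 1 over both libraries were considered, and 0.58 was the threshold. Effective fragments are (2 x FPKM / (upper bound - FPKM)) squared. Starts of loci are given 1 higher than deposited, since 10018 of 20932 were 1 below the GENCODE start of mm9 and 593 equal to it. Groups came from the titles.

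The genes and lists were chosen with earlier results of these data known. The text names the 10 genes, Hnrnpl, marker genes, up to 3 rises and 3 falls of each list, and for Cd36, Cpt1b, Acadl and Hadha the 3 nearest genes. Chkb, Zcchc17, Fabp4, Ppara and Ppargc1a, and in si-hnRNPL over si-NC Slc27a1 and Angptl4, were named for their values or position. Alternatives were pseudocounts of 0.1 and 0.01, a threshold of 1, other filters, centering, a common sum, subtraction of the 500 entries nearest in effective length, and summing of entries with one symbol. Calculations used pandas 2.3.3 and numpy 2.4.6 on Python 3.11.15, with scipy 1.17.1 for the counting interval and matplotlib 3.10.9 for plots, and the code was tested on simulated data.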

Additional observations from a re-analysis of the deposited data

How the results depend on the processing

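In MT over MB, 2 genes were higher and 0 lower under every alternative except 2. With an FPKM of at least 1 required in both libraries Cd36 dropped out and 1 gene (Fabp3) was higher. Of all 10791 entries that met this filter, 1293 were higher and 3115 lower. With a common sum 6 of the 10 genes were higher (Cd36, Fabp3, Cpt1a, Acadvl, Acadm and Hadha). The median log2 change of the expressed genes was 0.36 after centering, 0.69 with the common sum and 0.33 after subtraction of the entries nearest in length, in place of 0.14. The effective length of Cd36 rests on 1.34 fragments in MB, so that its length neighbors carry no weight. Of the 80 other genes, 5 were lower at a threshold of 1, 19 were higher and 5 lower after centering, 29 and 4 with the common sum, and 17 and 8 after subtraction by length, in place of 11 and 13. Over all expressed entries, 1551 of 11486 were lower at a threshold of 1. After centering 2423 of 11486 were higher and 2231 lower, and with the common sum 3899 of 11545 and 1328. No such count was made for the subtraction by length. In si-hnRNPL over si-NC, the count of 1 gene higher went to 0 at a threshold of 1 and to 0 after subtraction by length. At a threshold of 1 only 35 of all 11234 expressed entries were higher, and by length no such count was made. Of the 80 other genes, 1 was lower with either smaller pseudocount and 1 with the common sum. Among all expressed entries, 191 and 200 of 11234 were lower with pseudocounts of 0.1 and 0.01, and 183 of 11238 with the common sum. In either comparison 6 of the 10 genes kept their sign under the 8 alternatives that give each gene a value, Cd36 and Fabp3 among them. Only centering, the common sum and the subtraction by length could turn a sign. A pseudocount keeps it, and the filters and the summing left the value of each of the 10 genes as it was. With other pseudocounts the log2 change of Cd36 in MT over MB was 4.24 and 6.57, and that of Cpt1b in si-hnRNPL over si-NC -1.18 and -1.43. No setting leaves out a replicate, since each condition has 1 library. Depth limited most the values of Cd36 in MB, on 1.34 fragments, and of Cd36, Cpt1b and Fabp3 in the polyA libraries, on 9.76 to 67.3 fragments.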
